A study of Mus musculus with 20 samples.

Results

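The mRNA levels of glutamate receptor subunits and of the scaffolds that hold them at the postsynaptic membrane were followed through the layers of the adult mouse retina. The 34 genes were taken by name: the AMPA, kainate, NMDA, delta and metabotropic receptors (Grm6 left out), the Dlg, Homer and Shank scaffolds, Camk2a and Nrgn. A probe set with a single symbol was found for 33 of them, and Grin1, the obligatory NMDA receptor subunit, is not analysed here. The filter on dim signal (a log2 intensity over 5 on at least 2 arrays) was passed by 30 genes of the list, among 15057 genes tested in all. The 3 that did not pass it were dim in every tissue: Grik2 read 12.6 to 28.8, Grin2a 10 to 34.1 and Homer1 14.5 to 30.9 intensity units over the 20 arrays.

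Samples were taken from C57BL/6 mice aged 7 to 8 weeks: whole retina, and 4 layers cut by laser capture microdissection. The layers were that of the photoreceptors (titled ONL+OS/IS), the inner nuclear layer, which holds bipolar, amacrine and horizontal cell bodies, the synaptic inner plexiform layer, and the ganglion cell layer. Each was collected after 3 h of dark adaptation (at most 0.4 lux) and after 6 h of light adaptation (450 lux), which makes 10 groups of 2 Affymetrix arrays. Levels are GCRMA intensities on a linear scale, and differences are on the log2 scale after values under 8 were set to 8. The labels tie no array to an animal, so p-values measure only the spread between these samples, which may be technical.

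Glutamate is the transmitter of photoreceptors, bipolar cells and ganglion cells. Ionotropic receptors are tetrameric cation channels: AMPA receptors (Gria genes) carry fast excitation, kainate receptors (Grik genes) are used by several types of OFF bipolar cell, NMDA receptors (Grin genes) admit calcium, and metabotropic receptors (Grm genes) signal through G proteins. MAGUK proteins (Dlg genes) bind receptor tails through PDZ domains, and Homer and Shank proteins link them to deeper layers of the postsynaptic density. In the retina the inner plexiform layer holds the synapses of bipolar cells onto amacrine and ganglion cells, whereas photoreceptors release glutamate from terminals in the outer plexiform layer.

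Promoter sequence is shown for 3 genes that differed between layers in different ways. Nrgn and Grm2 were called higher in the inner plexiform layer. Dlg4 was called higher in the photoreceptor layer against the other 3 together, though its mean in the inner plexiform layer was close to that. The windows are the 250 bases before the annotated start in RefSeq GRCm38.p6, 5′ to 3′ on the gene's own strand, and 22 of the 34 genes had such a window. Capitals mark matches to TTCAGCACC and GGACAG, the core letters of the left and right parts of the RE1 element bound by the repressor REST, and to TAATCC, which reads GGATTA on the other strand, the core bound by the photoreceptor homeodomain factors CRX and OTX2, with both strands searched.
Nrgn, chr9:37552746-37552995, minus strand: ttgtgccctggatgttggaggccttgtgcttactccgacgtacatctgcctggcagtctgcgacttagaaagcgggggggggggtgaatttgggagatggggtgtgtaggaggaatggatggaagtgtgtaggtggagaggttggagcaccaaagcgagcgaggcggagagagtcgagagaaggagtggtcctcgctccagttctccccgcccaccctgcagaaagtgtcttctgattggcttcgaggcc
Grm2, chr9:106656110-106656359, minus strand: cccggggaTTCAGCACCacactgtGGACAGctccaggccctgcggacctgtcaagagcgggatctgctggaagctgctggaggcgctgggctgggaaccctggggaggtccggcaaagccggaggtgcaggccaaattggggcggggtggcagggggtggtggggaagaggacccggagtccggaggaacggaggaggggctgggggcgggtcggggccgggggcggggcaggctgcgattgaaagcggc
Dlg4, chr11:70016953-70017202, plus strand, the most upstream of 3 annotated starts: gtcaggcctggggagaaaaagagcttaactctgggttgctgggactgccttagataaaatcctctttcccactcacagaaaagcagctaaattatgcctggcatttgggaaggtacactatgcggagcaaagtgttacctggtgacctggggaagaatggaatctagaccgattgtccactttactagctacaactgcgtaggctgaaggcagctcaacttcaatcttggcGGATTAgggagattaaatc
The Grm2 window holds TTCAGCACC 242 to 234 bases before the start, and GGACAG 226 to 221 bases before it. Of all 32851 promoter windows of this length, 0.301% hold TTCAGCACC, 18.7% hold GGACAG and 6.25% hold TAATCC. Among the 22 genes of the list with a window, these letters were found in 1 (Grm2), 6 (Gria2, Grin1, Grin2d, Grm2, Grm8 and Homer2) and 1 (Dlg4). A gene was counted if any of its windows held them, so these counts are by gene and the shares above by window. The Dlg4 match lies 19 to 14 bases before the start, and the Nrgn window holds none of the 3 motifs. A match is a description of letters and not a binding site.

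The layers were checked against marker genes. The summed intensity of the 8 rod markers tested was 5920 to 6442 in the photoreceptor layer, against 508 to 1859 in the inner nuclear, 752 to 1248 in the inner plexiform and 496 to 2111 in the ganglion cell layer. Ganglion cell markers (11 tested) summed to 2269 to 3741 in the ganglion cell layer and to 627 to 660 in the photoreceptor layer. Bipolar markers (9 tested) summed to 1212 to 1827 in the inner nuclear layer, which overlaps the 1166 to 1432 of the inner plexiform layer, and to 896 to 942 in the photoreceptor and 815 to 897 in the ganglion cell layer. Amacrine markers (10 tested) summed to 938 to 1205 in the inner nuclear, 1012 to 1632 in the inner plexiform, 885 to 1189 in the ganglion cell and 643 to 681 in the photoreceptor layer. Müller glia markers (9 tested) summed to 1014 to 1700 in the inner nuclear, 706 to 1615 in the inner plexiform, 736 to 991 in the ganglion cell and 498 to 533 in the photoreceptor layer. The inner nuclear and inner plexiform layers were thus not separated by the markers of these 3 cell types. The ganglion cell marker Thy1 was under the floor on all arrays of the inner nuclear layer, and the cone opsin Opn1sw on all arrays of the ganglion cell layer. Rod marker signal was present in every layer, and its part in the results was not tested. Median intensity per array was 37.5 to 40.8, and replicate arrays correlated at 0.851 to 0.956. On 5 light-adapted arrays (replicate 1 of whole retina, of the inner nuclear layer and of the photoreceptor layer, and both of the ganglion cell layer) the median over 30 Y-linked probe sets was over 100, so these arrays stand apart from the others.

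The first question was whether the list differed between layers. A moderated F test over the 4 layers (limma, Benjamini-Hochberg adjustment over 15057 genes) called 9 of the 30 genes, 30% of them, against a background of 16.5% of all genes. They were the receptors Gria3, Grik5, Grin2d, Grid1 and Grm2, the scaffolds Dlg1, Dlg4 and Shank1, and neurogranin (Nrgn), with the lowest adjusted p for Nrgn (0.00064). The count was 4 (13.3%, against 11.4% of all genes) if light-adapted replicate 1 of the photoreceptor layer was left out, which is near the background. It was 5 (16.7%) without either dark-adapted array of that layer, against 11.2% without replicate 1 and 10.7% without replicate 2. Without the 5 arrays with Y-linked signal it was 4 of 28, against 8.1% of all genes. The photoreceptor layer had the lowest of the 4 layer means for 20 of 30 genes (66.7%, against 36.3% of all genes). The ganglion cell layer had the highest mean for 13 of 30 (43.3%, against 18.6%), the inner plexiform layer for 9, the inner nuclear layer for 6, and the photoreceptor layer for 2 (Dlg1 and Dlg4). The median range between layer means was 0.66 for the list and 0.43 for all genes on the log2 scale.

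**Figure D1:**
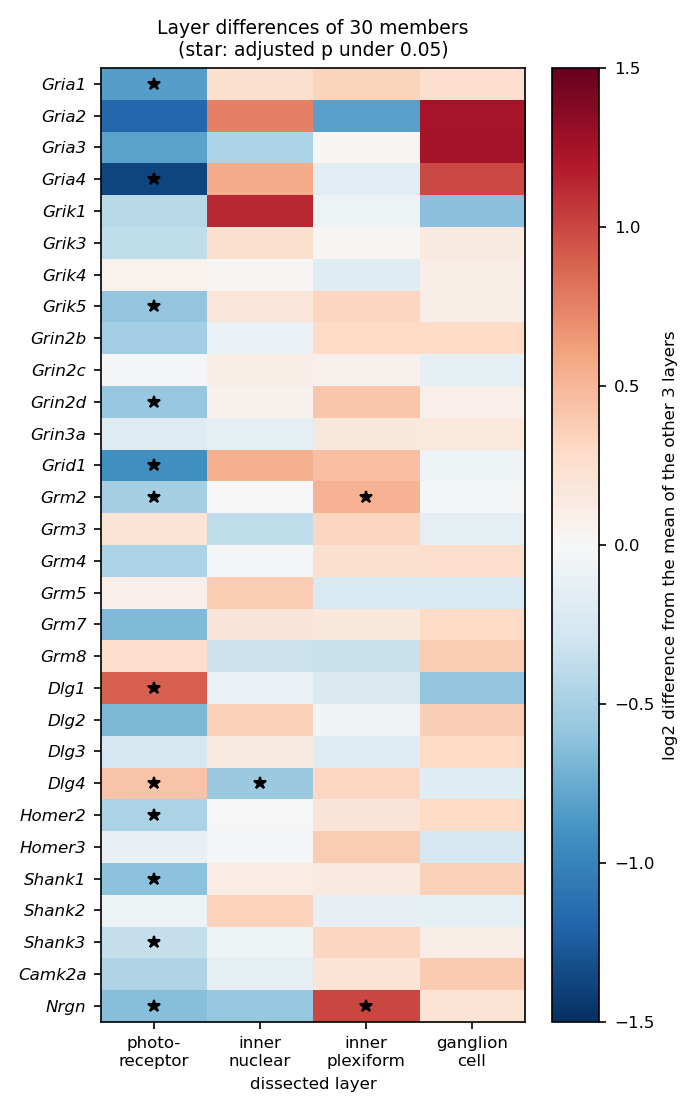
Log2 difference of each layer from the mean of the other 3 layers, for the 30 genes tested, in rows ordered by role; stars mark adjusted p under 0.05. The photoreceptor column is mostly blue, with 10 genes called lower and Dlg1 and Dlg4 called higher, and the ganglion cell column has its strongest red in Gria2 and Gria3 without a star.

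Against the other 3 layers together, the photoreceptor layer was lower for 24 of 30 genes, with a median difference of -0.47 for the list and -0.056 for all genes. The test called 10 genes lower (33.3% of the list, against 5.69% of all genes) and 2 higher (6.67%, against 7.26%). The 4 layer contrasts share their arrays and are not independent of each other. In dissected layers, a difference in the share of cells that make a transcript and one in the transcript per cell cannot be told apart. The arrays of the photoreceptor layer lay below all 12 of the other layers for 3 genes (Gria1, Grik5 and Shank1, 10% of the list, against 1.59% of all genes) and above all 12 for Dlg1 (3.33%, against 3.49%). No gene of the list stood apart in this way in the inner nuclear layer (background 0.153% above and 0.0797% below), the inner plexiform layer (1.22% and 0.465%) or the ganglion cell layer (0.312% and 0.0731%). Within the dark-adapted and within the light-adapted arrays 26 of the 30 genes had the same sign, among them all 12 called. The contrast is the mean of these 2 differences, so genes called in it tend to share a sign. Only 2 and 3 genes were called for these 2 differences, against 4.64% and 4.7% of all genes. Both come from the same fit, with fewer arrays on each side. The count of 12 rested on all 4 photoreceptor layer arrays: it was 4 (13.3%, against 6.89% of all genes) without dark-adapted replicate 2 and 6 (20%, against 6.71% to 8.04%) without any other. Without the 5 arrays with Y-linked signal it was 3 of 28, against 6.96% of all genes.

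Among AMPA receptor subunits, Gria1 read 20.7 and 22.6 in dark-adapted and 27.3 and 26.3 in light-adapted photoreceptor layers, against 31.2 to 69.8 (median 42.5) on the 12 arrays of the other layers. The groups did not overlap, and Gria1 fell by 0.82 ± 0.21 (SE, 4 arrays against 12, adjusted p = 0.014). Gria4, a fast-gating subunit, read 29.7, 23.9, 21.9 and 23.0 in the photoreceptor layer, against 27.9 to 188.7 (median 57.6) in the others, a difference of -1.37 ± 0.38 (adjusted p = 0.025). Its groups overlapped at the dim end of the other layers. Leaving out any 1 of the 4 photoreceptor layer arrays ended the calls of Gria1 and Gria4, and so did leaving out the 5 arrays with Y-linked signal. The Gria4 call was also lost without the filter on dim signal. Over all alternatives the difference ran from -0.91 to -0.55 for Gria1 and from -1.57 to -1.01 for Gria4.

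Gria2, the subunit that makes AMPA receptors nearly impermeable to calcium, read 19.9, 27.1, 13.5 and 15.8 in the photoreceptor layer, against 6.9 to 168 (median 36.4) in the other layers. The difference of -1.18 ± 0.45 lay within the range of those called but missed the threshold (adjusted p = 0.1). With replicate number as a block, Gria2 passed it in this layer and in the ganglion cell layer (closing section). Gria3 differed by -0.80 ± 0.33 (adjusted p = 0.13). In the ganglion cell layer Gria2, Gria3 and Gria4 were higher than in the other 3 layers by 1.23 ± 0.45, 1.25 ± 0.33 and 0.99 ± 0.38, with adjusted p of 0.26, 0.07 and 0.3. Gria3 read 43.0 and 88.2 in dark-adapted and 29.4 and 91.5 in light-adapted ganglion cell layers, against 14.3 to 86.0 (median 21.2) in the others. The direct contrast of the photoreceptor layer with the ganglion cell layer was called for Gria3 (-1.54 ± 0.41, adjusted p = 0.026) and for Gria4 (-1.77 ± 0.47, adjusted p = 0.026).

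Of 4 kainate receptor genes tested, Grik5, a high-affinity subunit, was called. It read 56.1, 63.3, 65.6 and 73.0 in the photoreceptor layer, against 73.2 to 131.8 (median 92.7) in the other layers, and the groups did not overlap. Grik5 fell by 0.59 ± 0.13 (adjusted p = 0.0073), a call lost without replicate 1 of the dark-adapted photoreceptor layer and without the 5 arrays with Y-linked signal (adjusted p up to 0.14). Grik1, the subunit of several OFF bipolar cell types, read 29.7 and 119.9 in dark-adapted and 25.7 and 54.1 in light-adapted inner nuclear layers, against 11.2 to 51.3 (median 22.9) in the other layers. The difference of 1.13 ± 0.32 in the inner nuclear layer missed the threshold (adjusted p = 0.16). Without replicate 1 of the dark-adapted inner nuclear layer, the lower array of that pair (29.7, against 119.9), it was 1.63. That larger value rests on the higher array of a pair that disagreed. Bipolar markers were called higher in the same layer for 4 of 9 genes, against 0.252% of all genes, and their part in the Grik1 value was not tested. Grik3 and Grik4 differed from the other layers by -0.39 and 0.06 in the photoreceptor layer and were not called.

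Among the NMDA receptor subunits, Grin2d fell by 0.56 ± 0.14 in the photoreceptor layer (adjusted p = 0.013), where it read 33.5 to 48.5, against 41.9 to 82.4 (median 59.3) in the other layers. This call was lost without light-adapted replicate 1 or dark-adapted replicate 2 of the photoreceptor layer, and without the 5 arrays with Y-linked signal (adjusted p up to 0.11). Grin2b differed by -0.51 ± 0.18 (adjusted p = 0.065), Grin2c by -0.02 ± 0.15 and Grin3a by -0.19 ± 0.15. For Grin2c the 95% interval ran from -0.33 to 0.29. The delta receptor Grid1 read 29.4 and 46.9 in dark-adapted and 30.9 and 35.8 in light-adapted photoreceptor layers, against 43.2 to 98.7 (median 71.3) in the other layers. It fell by 0.92 ± 0.20 (adjusted p = 0.0055), the call being lost without replicate 1 of the dark-adapted photoreceptor layer and without the 5 arrays with Y-linked signal (adjusted p up to 0.059).

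Metabotropic receptors were split. Grm2, a presynaptic receptor that lowers cyclic AMP, read 291.1 and 244.2 in dark-adapted and 281.6 and 332.9 in light-adapted inner plexiform layers, against 157.6 to 270.1 (median 195.1) in the other layers. It was higher there by 0.52 ± 0.12 (adjusted p = 0.0089), and it fell by 0.49 ± 0.12 in the photoreceptor layer (adjusted p = 0.0099), where it read 157.6 to 189. The ranges overlapped in both contrasts. The inner plexiform call needed the light-adapted inner plexiform arrays: without them the adjusted p was 0.29, and it was also lost without replicate 1 of the dark-adapted ones. The photoreceptor call was lost without replicate 2 of either adaptation (adjusted p up to 0.07). The other 5 were not called in any layer against the rest. Grm4 and Grm7, both presynaptic receptors, were at -0.48 ± 0.19 and -0.66 ± 0.26 in the photoreceptor layer (adjusted p = 0.11 and 0.1). Grm3, Grm5 and Grm8 were at 0.21, 0.07 and 0.27 there, with 95% intervals from -0.29 to 0.70, from -0.23 to 0.38 and from -0.18 to 0.72.

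Of 4 MAGUK scaffold genes, 2 were called higher in the photoreceptor layer. Dlg1 (SAP97) read 227.3 and 271.7 in dark-adapted and 271.9 and 251.4 in light-adapted photoreceptor layers, against 88.6 to 207.5 (median 139.4) on the 12 arrays of the other layers. All 4 arrays lay above all 12, and Dlg1 rose by 0.90 ± 0.17 (adjusted p = 0.002), a call kept under all 29 alternatives listed before the fits. Within dark-adapted groups, a contrast not among these, it differed by 0.69 ± 0.24 and was not called (adjusted p = 0.14). Within light-adapted groups it differed by 1.11 ± 0.24 (adjusted p = 0.013). Dlg4 (PSD-95), which is also found at photoreceptor terminals, read 265.8, 306.1, 213.9 and 284.6 in the photoreceptor layer, against 128.9 to 306.1 (median 204.7) in the others. Its log2 mean in the photoreceptor layer, 8.05, was close to the 7.97 of the inner plexiform layer, where it read 224.9 to 306.1. In direct contrasts of the photoreceptor layer, Dlg4 was called against the inner nuclear layer (0.74 ± 0.15, adjusted p = 0.0049). It was not called against the inner plexiform layer or the ganglion cell layer (adjusted p = 0.075 for the latter). Against the other 3 layers together the ranges overlapped, and Dlg4 rose in the photoreceptor layer by 0.43 ± 0.12 (adjusted p = 0.026). It lost this call without either dark-adapted array or light-adapted replicate 2 of that layer, and without the 5 arrays with Y-linked signal (adjusted p up to 0.19). In the inner nuclear layer Dlg4 read 158.4 and 205.9 in dark-adapted and 128.9 and 151.2 in light-adapted samples, against 179.1 to 306.1 (median 226.5) in the other layers. It fell there by 0.56 ± 0.12 (adjusted p = 0.044), which was the only call of the list in that layer (3.33%, against 0.611% of all genes). This call was lost under 20 of 29 alternatives. Dlg2 (-0.68 ± 0.28, adjusted p = 0.12) and Dlg3 (-0.25 ± 0.18, adjusted p = 0.38) were below the other layers in the photoreceptor layer without a call.

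Of 5 Homer and Shank genes tested, 3 were called lower in the photoreceptor layer. Shank1 read 39.8 and 39.1 in dark-adapted and 36.1 and 43.8 in light-adapted photoreceptor layers, against 50 to 74.8 (median 61.5) in the other layers. The groups did not overlap, and Shank1 fell by 0.61 ± 0.13 (adjusted p = 0.0035). Its call was kept in each of 20 fits that left out 1 array and lost without the 5 arrays with Y-linked signal (adjusted p = 0.084). Shank3 fell by 0.36 ± 0.12 (adjusted p = 0.049) and Homer2 by 0.48 ± 0.15 (adjusted p = 0.045). Both lie at the threshold: Shank3 lost its call under 20 of 28 alternatives and Homer2 under 17 of 28. Homer3 (-0.11 ± 0.15) and Shank2 (-0.07 ± 0.12) were not called. For Shank2 the probe sets disagreed, since the other 2 gave -0.54 ± 0.15 and -0.44 ± 0.24 in the photoreceptor layer and 0.57 ± 0.15 and 0.46 ± 0.24 in the inner plexiform layer, where the one used gave -0.13.

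Nrgn, which encodes neurogranin, a postsynaptic protein that binds calmodulin at low calcium, had the lowest p of the list in the test between layers. It read 153.5 and 152 in dark-adapted and 209.6 and 347.5 in light-adapted inner plexiform layers, against 72.2 to 166.8 (median 100.5) on the 12 arrays of the other layers. It was higher there by 1.00 ± 0.15 (adjusted p = 0.00084), and only 1 array of the other layers, in the ganglion cell layer at 166.8, reached into its range. With Grm2 it made 2 calls in the inner plexiform layer, both higher (6.67%, against 8.29% of all genes) and 0 lower (0%, against 5.29%), so the count itself is near the background. Within dark-adapted arrays the Nrgn difference was 0.60 ± 0.22 (adjusted p = 0.31), and within light-adapted arrays 1.39 ± 0.22 (adjusted p = 0.00082). Without the light-adapted inner plexiform arrays it was 0.59 (adjusted p = 0.2). In the photoreceptor layer Nrgn fell by 0.63 ± 0.15 (adjusted p = 0.011), a call lost without light-adapted replicate 1 or dark-adapted replicate 2 of that layer and without the 5 arrays with Y-linked signal (adjusted p up to 0.18). Camk2a, the alpha subunit of the kinase of the postsynaptic density, was at -0.45 ± 0.17 in the photoreceptor layer (adjusted p = 0.085).

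**Figure D2:**
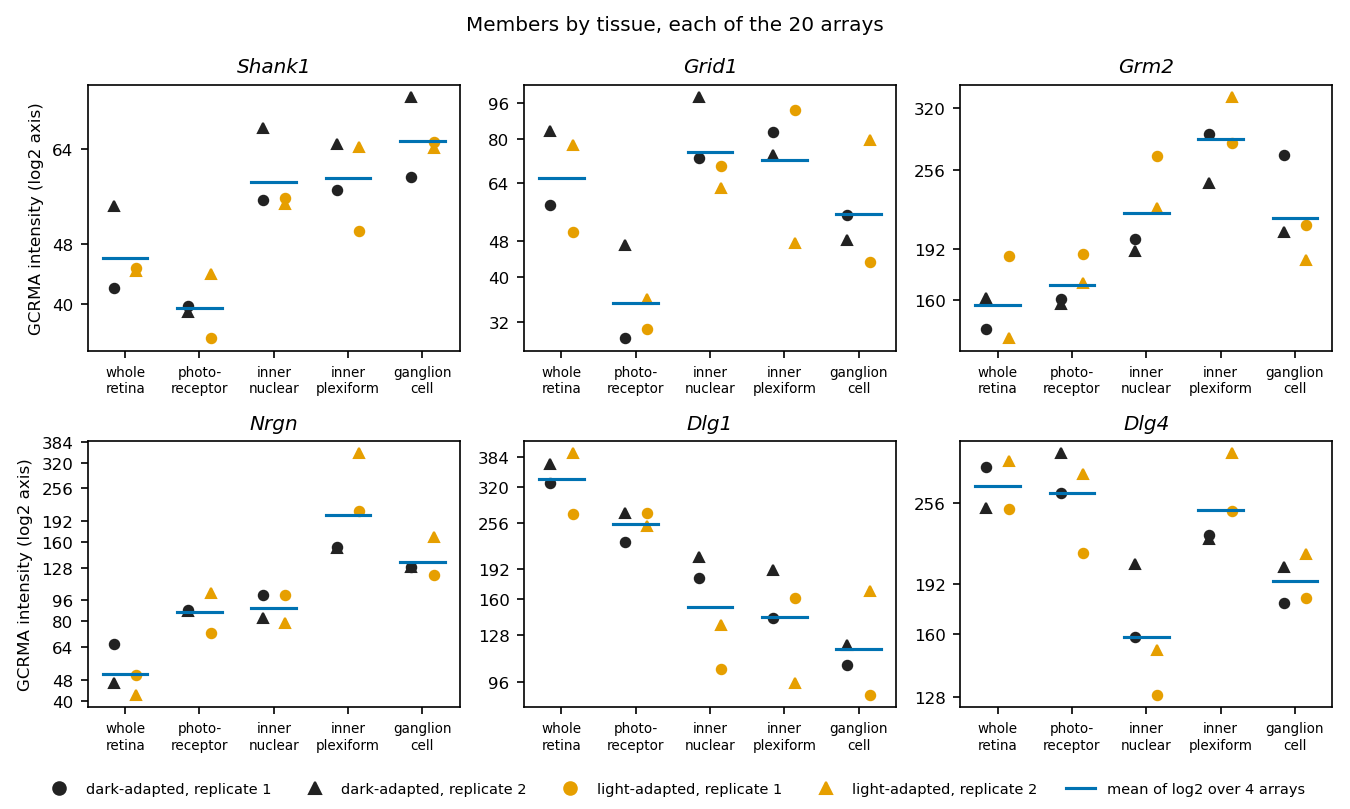
GCRMA intensity (log2 axis) of 6 genes on each of the 20 arrays, by tissue; black marks are dark-adapted and orange marks light-adapted arrays, circles replicate 1 and triangles replicate 2, and the blue bar is the mean of log2 values over 4 arrays. Shank1 and Grid1 are lowest and Dlg1 highest of the 4 layers in the photoreceptor layer, and Nrgn and Grm2 are highest in the inner plexiform layer.

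No gene of the list was called in the ganglion cell layer against the other 3 layers by limma (0%, against 1.87% of all genes). At an unadjusted p under 0.05 there were 6 (20%, against 10.8% of all genes): Gria2, Gria3, Gria4, Shank1 and Camk2a higher and Dlg1 lower (-0.59 ± 0.17, adjusted p = 0.11). Without light-adapted replicate 1 of that layer the Gria3 difference was 1.66. The array left out was the lower of a pair that disagreed (29.4, against 91.5), so this larger value rests on the higher one. Ganglion cell markers were called higher there for 10 of 11 genes, against 1.17% of all genes, and their part in these values was not tested.

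Pairs of layers were compared directly. The photoreceptor layer differed from the inner plexiform layer in 9 genes (30%, against 21.4% of all genes), from the ganglion cell layer in 5 (16.7%, against 7.66%) and from the inner nuclear layer in 4 (13.3%, against 5.33%). Over the 6 pairwise contrasts there were 20 calls (11.1% of the 180 tests of the list, against 7.13% over all genes). Without light-adapted replicate 1 of the photoreceptor layer there were 11 (6.11%, against 5.03%), which is near the background. Dlg1, higher, and Shank1, lower, were called in all 3 of these contrasts. Against the inner plexiform layer the largest of the called differences were those of Nrgn (-1.22 ± 0.19), Grid1 (-1.03 ± 0.25) and Gria1 (-0.86 ± 0.26), and against the inner nuclear layer that of Grid1 (-1.09 ± 0.25). The inner nuclear and inner plexiform layers differed in Nrgn (-1.18 ± 0.19, adjusted p = 0.0028) and Dlg4 (-0.66 ± 0.15, adjusted p = 0.018), which is 6.67% of the list against 4.85% of all genes. By limma the inner nuclear layer against the ganglion cell layer gave 0 calls (background 0.458%) with 5 genes at an unadjusted p under 0.05 (16.7%, against 7.31% of all genes), and the inner plexiform against the ganglion cell layer 0 calls (3.1%) with 6 (20%, against 19.4%).

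Whole retina was set against the mean of the 4 dissected layers to see which genes the layers together under- or over-represent. It was called higher for 8 genes (26.7%, against 19.9% of all genes) and lower for 8 (26.7%, against 28.6%). Since 48.5% of all genes were called and their median difference was -0.18 (-0.12 for the list), the number of calls says little about these genes. By role, AMPA and kainate receptors and MAGUK scaffolds held 7 of the 8 genes called higher, with Grm8 as the eighth, and Homer, Shank, Camk2a and Nrgn held 5 of those called lower.

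Gria2 read 143.5 and 168.5 in dark-adapted and 73.9 and 235.3 in light-adapted whole retina, against 6.9 to 168 (median 28.6) on the 16 layer arrays, a difference of 2.07 ± 0.44 (adjusted p = 0.0014). Gria4 read 105.3, 130.9, 91.5 and 229.9, against 21.9 to 188.7 (median 41.5), and rose by 1.39 ± 0.37 (adjusted p = 0.0067). Both overlapped the layers. Dlg1 read 327.6, 368.3, 269.8 and 393.1, against 88.6 to 271.9 (median 164.3), and rose by 1.07 ± 0.17 (adjusted p = 0.00014). Only the lowest whole retina array lay inside the range of the layers.

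Dlg2 (PSD-93) read 101.8, 146.1, 84.1 and 200.9 in whole retina, against 25.3 to 126.9 (median 54.2) in the layers, and rose by 1.09 ± 0.27 (adjusted p = 0.0038). Grik1 read 41.2, 56.2, 57.4 and 91.6, against 11.2 to 119.9 (median 24.5), and rose by 1.17 ± 0.31 (adjusted p = 0.0067). Grm8, a presynaptic receptor with high affinity for glutamate, read 99.2, 93.6, 54.7 and 121.3, against 30.2 to 69.5 (median 41.9), and rose by 1.05 ± 0.20 (adjusted p = 8e-04). Gria3 (0.91 ± 0.32) and Dlg4 (0.36 ± 0.12) were called as well. Without replicate 2 of the light-adapted whole retina, 8 of the 30 genes were called in place of 16 (26.7%, against 25.7% of all genes), the lost ones being Gria3, Gria4, Grik1, Dlg2 and Dlg4 among those higher and Grin2d, Homer2 and Homer3 among those lower. Gria3 and Grin2d were also lost without either dark-adapted whole retina array, and Dlg4 and Homer3 without dark-adapted replicate 1. Over all alternatives the Gria3 difference ran from 0.48 to 1.34.

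Nrgn read 65.4, 46.8, 50 and 42.1 in whole retina, against 72.2 to 347.5 (median 111.2) in the layers. No array overlapped, and Nrgn fell by 1.26 ± 0.15 (adjusted p = 1.6e-05). Shank3 read 29.6 to 33.8, against 44.2 to 79.3 (median 57.1), and fell by 0.81 ± 0.11 (adjusted p = 5.5e-05), again without overlap. How many of all genes lay apart in this way was not counted, and 48.5% of all genes were called in this comparison. Camk2a fell by 0.70 ± 0.16, Grm4 by 0.65 ± 0.18, Homer2 by 0.52 ± 0.15, Homer3 by 0.50 ± 0.14, Grm2 by 0.48 ± 0.11 and Grin2d by 0.40 ± 0.14. The labels do not say whether whole retina was collected in the same way as the cut layers, so handling and tissue cannot be told apart in this comparison. Of the 16 calls, 7 were kept under every alternative (Gria2, Grm2, Grm8, Dlg1, Shank3, Camk2a and Nrgn).

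**Figure D3:**
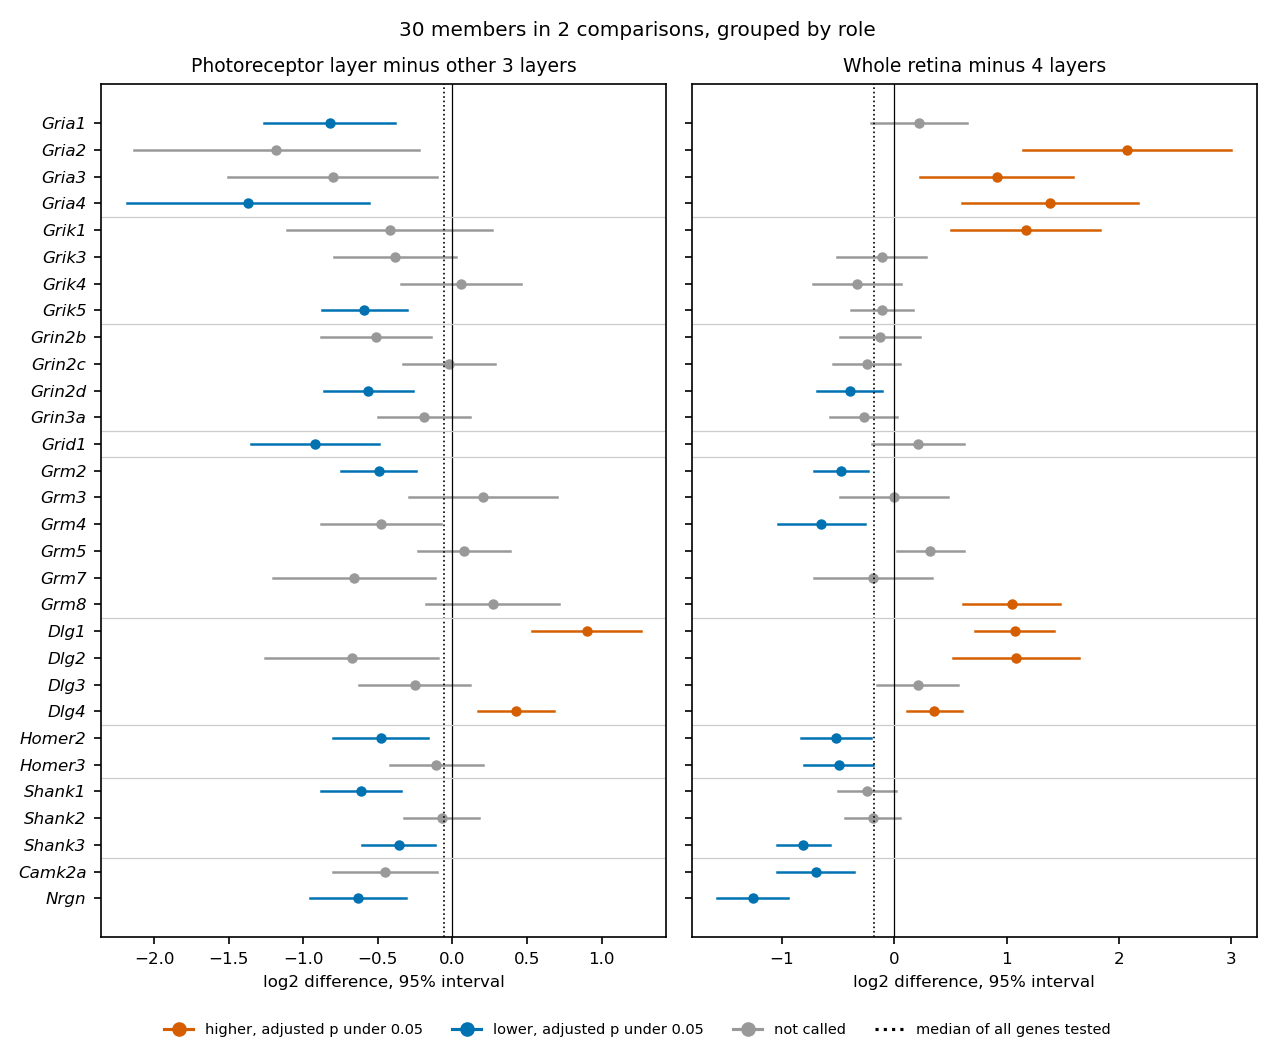
Log2 differences of the 30 genes tested, with 95% intervals, for the photoreceptor layer minus the other 3 layers (left) and whole retina minus the 4 layers (right); orange is called higher, blue called lower, grey not called, and the dotted line is the median of all genes. In the left panel 24 of 30 points lie below 0, and in the right panel 8 genes are called on each side.

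Dark and light adaptation were compared over all tissues and within each. The 5 arrays with Y-linked signal were all light-adapted, and none came from the inner plexiform layer. In the other tissues, adaptation and what sets these arrays apart cannot be fully told apart. In the ganglion cell layer, where both light-adapted arrays were among them, they cannot be told apart at all. No gene of the list was called by limma over the 5 tissues (background 0.0133% of all genes), in the photoreceptor layer (0.0465%) or inner nuclear layer (0%), in the inner plexiform layer (1.83%) or ganglion cell layer (0.00664%), in whole retina (0.0266%) or by the test of a dark effect that differs between tissues (0.0266%). At an unadjusted p under 0.05 there was 1 gene over all tissues (Grm3, -0.39 ± 0.18; 3.33%, against 6.11% of all genes) and 1 in the inner nuclear layer (Dlg1, 0.71; 3.33%, against 3.14%). There were 7 in the inner plexiform layer (23.3%, against 18.7% of all genes), a share near the background. In the photoreceptor layer, the ganglion cell layer and whole retina there were 0, against 1.49%, 4.08% and 0.897% of all genes. The typical 95% interval reached 0.28 to either side of the difference over all tissues and 0.64 within a tissue. These intervals are not adjusted for the number of genes and are no limit of detection. Larger differences also went without a call, such as Gria2 (1.96, interval 0.30 to 3.62) and Nrgn (-0.82) in the inner plexiform layer.

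In the inner plexiform layer the 7 genes were Gria2 (1.96 ± 0.79), Gria3 (1.46 ± 0.58), Dlg2 (1.01 ± 0.48) and Shank2 (0.46 ± 0.21), above 0 in the dark, and Grm3 (-1.10 ± 0.41), Nrgn (-0.82 ± 0.27) and Homer3 (-0.62 ± 0.26), below it. Nrgn read 153.5 and 152 in the dark, against 209.6 and 347.5 in the light, and had the lowest adjusted p of the list (0.12). Gria2 read 22.2 and 87.2 in the dark, against 6.9 and 15.9 in the light. For each of these 2 genes the pairs of arrays did not overlap, but with 2 arrays against 2 the spread within a pair was of the same order as the difference for Gria2. The share of all genes whose pairs do not overlap was not counted, so this is not read as a trait of these 2 genes.

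**Figure D4:**
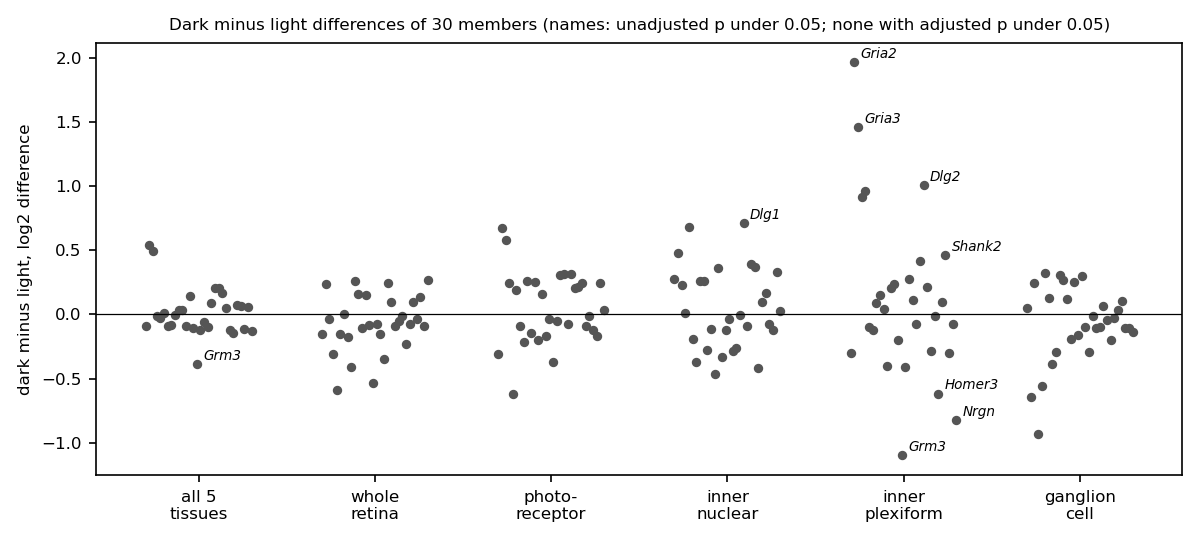
Dark minus light difference (log2) of the 30 genes over all 5 tissues and within each; each point is a gene, and names mark an unadjusted p under 0.05. The inner plexiform layer has 7 named points, from -1.10 to 1.96, and no point in any column had an adjusted p under 0.05.

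Genes that work with these receptors were given by 3 further lists. Of 26 tested receptor partners, 5 were lower and 0 higher in the photoreceptor layer, where 5.69% of all genes were called lower and 7.26% higher. Their median difference was -0.33, against -0.056 for all genes. They included the AMPA receptor auxiliary subunits Cacng4 (-0.69 ± 0.13) and Cacng8 (-0.49 ± 0.13) and the cornichon Cnih2 (-0.70 ± 0.20). In the inner plexiform layer 4 partners were higher and 1 lower (8.29% and 5.29% of all genes), with Cacng4 at 0.69 ± 0.13, Cacng8 at 0.72 ± 0.13, Cnih2 at 0.96 ± 0.20 and the PDZ protein Pick1 at -0.50 ± 0.16. In the ganglion cell layer Nptx1, a neuronal pentraxin that clusters AMPA receptors, was higher by 0.72 ± 0.15 and Olfm1 by 0.74 ± 0.16 (2 of 26, against 1.17% of all genes called higher). Of 21 other postsynaptic density genes tested, 6 were lower and 1 higher in the photoreceptor layer, with a median of -0.28. There Iqsec3 fell by 1.62 ± 0.21 and Cnksr2 by 1.51 ± 0.28, and Ppp1r9a (neurabin) rose by 0.68 ± 0.18. In the inner plexiform layer 4 of them were higher and 1 lower, with the Dlg-binding proteins Dlgap3 at 0.93 ± 0.16 and Dlgap1 at 0.73 ± 0.15. Cnksr2 was the gene called in the ganglion cell layer (1.28 ± 0.28). In whole retina against the layers, where 19.9% of all genes were called higher and 28.6% lower, 1 of 26 partners was higher and 11 lower. Of the 21 other postsynaptic density genes 4 were higher and 5 lower, shares near the background. Of receptors outside the list only Grin3b was tested, and it was lower in whole retina (-0.43 ± 0.14). No gene of the 3 lists was called for dark adaptation over the 5 tissues. The calls of these lists were not checked under the alternatives. In the inner plexiform layer 0.0598% of all genes were called within the dark-adapted groups and 15.7% within the light-adapted groups. The Grm2 and Nrgn calls there were lost without the light-adapted inner plexiform arrays, and the same was not tested for these lists.

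The spread between replicate arrays differed widely within the list. The residual SD was 0.31 at the median of the list and 0.28 over all genes, but Gria2, Gria4, Gria3 and Grik1 stood at percentiles 99.8, 99.4, 98.5 and 98.2 of all genes tested, whereas Shank3 stood at 1.89. The largest gap between the 2 arrays of a group was 2.34 (log2) for Gria4 in the dark-adapted inner plexiform layer, where it read 27.9 and 141. For Gria2 and Grik1 it was 2.14 and 2.01, both in the dark-adapted inner nuclear layer.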

How the data were processed

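The deposited table holds GCRMA intensities of 35557 probe sets on 20 arrays. Per the submitters' processing notes the authors used GCRMA, a background correction by probe sequence followed by normalisation and summary per probe set (version not given in the sources used here). The linear scale of the intensities was read from the values; the plan had foreseen this, so log2 was taken after raising lower values to a floor of 8 (11.3% to 14.1% of an array's values lay under this floor). Probe sets with 1 symbol in the platform annotation (21789) were used, and a gene was represented by its probe set of highest mean after the filter. One limma fit (limma 3.58.1, R 4.3.3, intensity trend, 10 group means, 10 residual degrees of freedom) gave two-sided moderated tests, Benjamini-Hochberg adjusted over 15057 genes, with a threshold of 0.05. The labels do not say what same-numbered arrays share, and the fit did not pair them. A fit with replicate number as a block is given in the closing section. Values for every array are given for called genes whose layer arrays do not overlap the rest and for genes that differ by 1 or more between whole retina and layers; others were added after their values were seen. In simulated data for the photoreceptor contrast over 15057 genes, 89% of genes changed by 1 and 100% of those changed by 2 on the log2 scale were recovered, with 15 false calls. The simulated noise was independent between arrays, and changes under 1 were not simulated. The members and lists were chosen with earlier results of these data known. The number of arrays limits the precision. Alternatives are given in the closing section.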

Additional observations from a re-analysis of the deposited data

How the results depend on the processing

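No gene or count changed direction while called under any alternative tried. Counts of called genes out of 30, by limma, were 9 between the layers and, for a layer against the other 3, 12 (photoreceptor), 1 (inner nuclear), 2 (inner plexiform) and 0 (ganglion cell). There were 20 in the 6 pairwise contrasts, 16 in whole retina and 0 for dark adaptation. Leaving out 1 array in turn gave ranges of 4 to 12 between the layers, 4 to 14 in the photoreceptor layer, 0 to 1 (inner nuclear), 1 to 3 (inner plexiform), 0 to 1 (ganglion cell), 11 to 22 in the pairwise contrasts, 8 to 18 in whole retina, and 0 to 0 for each dark comparison. The photoreceptor count was 4 without replicate 2 of the dark-adapted photoreceptor layer and 6 without any other array of that layer, and the lone array of a pair is then assumed to vary like the other groups. The inner nuclear count was 0 with quantile normalisation, without the filter, without the intensity trend, and without either the light-adapted inner plexiform arrays or the 5 with Y-linked signal. A filter at log2 7 left 9 members tested and gave 5 between the layers, 5 in the photoreceptor layer and 8 in whole retina. It gave 11 in the pairwise contrasts (20.4% of 54 tests, against 16.5% over all genes). Without the 5 arrays with Y-linked signal (28 members tested) the counts were 4 between the layers, 3 in the photoreceptor layer and 9 in the pairwise contrasts. Without the light-adapted inner plexiform arrays (29 tested) they were 5 between the layers and 0 in the inner plexiform layer, where Nrgn was at 0.59 (adjusted p = 0.2). In the pairwise contrasts there were then 14 (8.05% of 174 tests, against 3.37% over all genes). The share of all genes called also changed with the setting, so a count without its share is not read as a result about the list. Contrasts within the dark-adapted groups, chosen after seeing the data, gave 2 calls in the photoreceptor layer (4.64% of all genes called) and 0 in the inner nuclear and inner plexiform layers. Within the light-adapted groups there were 3 in the photoreceptor layer (4.7% of all genes), 0 in the inner nuclear layer and 5 in the inner plexiform layer, which is near the background there (15.7% of all genes). The cause of these changes was not tested; fewer arrays entered each fit that left some out. Across single genes, the alternatives listed before the fits left 4905 values with the same call, 108 without a call they had and 39 with a call gained.

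With replicate number as a block the counts were 2 (inner nuclear layer), 5 (inner plexiform) and 3 (ganglion cell), and 1 for dark adaptation within tissues. In the pairwise contrasts there were 37 (20.6% of 180 tests, against 10.3% over all genes). The fit without the block gave 11.1% and 7.13% there. For the other counts with the block no share of all genes is given, so they are not read as results about the list. Same-numbered arrays of 45 pairs of groups had deviations that all correlated positively, at 0.0059 to 0.479 (median 0.127, 32 over 0.1). They thus tended to deviate together, mostly weakly. The labels do not say what same-numbered arrays share, so whether they should be paired is not settled. Gria2 was higher in the array numbered 2 in 10 of 10 groups, and its adjusted p with the block was 0.0019 in the photoreceptor and 0.0056 in the ganglion cell layer.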
